A study of Homo sapiens with 16 samples.

Results

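The regions described here are 552 intervals of the genome that carried acetylation of histone H3 lysine 27 (H3K27ac) after TGFB1, carried none in the vehicle list, and touched a binding site of SMAD2/3. They were chosen from 80848 H3K27ac peaks of the TGFB1 library on chromosomes 1 to 22 and X, of which they make 0.683%. A peak was a member when it overlapped no H3K27ac peak of the vehicle library and overlapped a SMAD2/3 peak of the TGFB1 library by at least 1 bp. Of all the H3K27ac peaks with TGFB1, 21.8% overlapped no vehicle peak and 10.8% held SMAD2/3. SMAD2/3 was rarer on TGFB1-only peaks, at 3.13% of 17615, than on peaks acetylated in both treatments, at 12.9%. The acetylation and the SMAD2/3 values below therefore chose the members and are a description of them.

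The cells were A375, an established human melanoma line. All of them were starved of serum for 2 h before treatment. The TGFB1 group then received the recombinant human ligand at 10 ng/mL for 2 h, and the vehicle group received the solvent, 4 mM HCl carrying BSA at 1 mg/mL, over the same time. Chromatin immunoprecipitation and sequencing used antibodies against Smad2/3 (written SMAD2/3 here), H3K27ac, MITF, ATF3 and JUNB. Each antibody had 1 library with a peak list in each treatment, so 10 lists were used, and 6 inputs were not analysed here. With no replicates no test was possible: shares carry 95% Wilson intervals, which cover counting error only. By the dates in the sample titles, SMAD2/3 and H3K27ac belonged together, MITF stood alone, and ATF3 and JUNB belonged together; both treatments of an antibody always shared their date. Depth was inferred from the peak values, in megareads (M). H3K27ac had 23.2 M with TGFB1 and 21.5 M in vehicle, and SMAD2/3 10.2 M and 9.37 M. JUNB was the deepest, at 47.7 M with TGFB1 and 34.1 M in vehicle. The ATF3 libraries were the most unequal, at 28.1 M with TGFB1 and 6.37 M in vehicle, whereas MITF had 7.40 M and 7.39 M.

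TGFB1 binds a complex of type I and type II receptor kinases, which phosphorylate SMAD2 and SMAD3. These enter the nucleus with SMAD4 and bind short sequence elements together with other transcription factors, AP-1 among them. H3K27ac is laid down by p300 and CBP on nucleosomes beside active promoters and enhancers, while the bound factors themselves sit in the gap between nucleosomes. JUNB and ATF3 are AP-1 family proteins of the JUN and ATF branches, and MITF is the lineage factor of pigment cells, active in many melanomas.

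Only 10 of the 552 members overlapped a promoter window, taken as 250 bases before to 50 after a gene start in RefSeq (GRCh38.p14). In 6 of the windows the SMAD2/3 summit lay inside as well, and 4 of these are printed, picked after their values were seen. Not printed are VPS37D, with none of the motifs marked below, and RAPGEF1, with 1 SMAD box. Neither JUNB nor ATF3 was called on the members there. Only in LOC124906209 did the member cover the whole printed window. The printed sequences run 5′ to 3′ on the strand of the gene. Capitals mark the AP-1 element TGANTCA, the SMAD box CAGAC, the SMAD palindrome GTCTAGAC and the E-boxes CACGTG and CATGTG, each searched on both strands. One CATGTG of LAMA3 shares bases with an AP-1 element.
NDST1: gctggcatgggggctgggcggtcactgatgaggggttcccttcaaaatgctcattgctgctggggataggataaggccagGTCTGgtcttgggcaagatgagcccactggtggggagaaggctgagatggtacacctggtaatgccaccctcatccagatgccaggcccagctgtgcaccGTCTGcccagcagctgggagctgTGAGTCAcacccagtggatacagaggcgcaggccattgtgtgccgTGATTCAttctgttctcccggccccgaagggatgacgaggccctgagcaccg
LAMA3: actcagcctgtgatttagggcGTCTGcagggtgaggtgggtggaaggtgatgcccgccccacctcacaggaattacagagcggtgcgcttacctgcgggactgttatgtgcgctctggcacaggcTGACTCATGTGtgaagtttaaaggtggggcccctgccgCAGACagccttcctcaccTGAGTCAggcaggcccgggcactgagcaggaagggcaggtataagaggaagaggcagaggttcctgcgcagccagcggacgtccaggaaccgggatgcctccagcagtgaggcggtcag
LOC124903779: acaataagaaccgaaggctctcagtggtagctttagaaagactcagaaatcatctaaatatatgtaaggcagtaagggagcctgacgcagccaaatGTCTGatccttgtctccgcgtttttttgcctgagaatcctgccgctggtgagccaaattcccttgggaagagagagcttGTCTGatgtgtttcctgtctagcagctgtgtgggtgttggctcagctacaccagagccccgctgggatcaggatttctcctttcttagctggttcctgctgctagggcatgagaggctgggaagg
LOC124906209: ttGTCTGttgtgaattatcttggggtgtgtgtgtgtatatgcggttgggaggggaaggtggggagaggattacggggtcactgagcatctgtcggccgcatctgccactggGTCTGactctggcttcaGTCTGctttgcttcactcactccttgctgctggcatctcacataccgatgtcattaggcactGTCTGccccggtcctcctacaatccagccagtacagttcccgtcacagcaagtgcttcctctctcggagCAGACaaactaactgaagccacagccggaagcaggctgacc
The windows are chr5:150497529-150497828 on the plus strand (NDST1), chr18:23872770-23873069 on the plus strand (LAMA3), chr16:64910488-64910787 on the minus strand (LOC124903779) and chr3:4831310-4831609 on the minus strand (LOC124906209). NDST1 encodes a heparan sulfate sulfotransferase and LAMA3 the laminin alpha 3 chain, and the other two are long non-coding RNA genes. Counted from 1 at the 5′ end, the SMAD2/3 summit fell at base 198 of the NDST1 window, and its AP-1 elements began at bases 204 and 249. That member ended at 150497664, before the summit and both elements, and overlapped JUNB and ATF3 peaks in both treatments. In LAMA3 the summit fell at base 52, with AP-1 elements at bases 126 and 182, and JUNB overlapped the member with TGFB1 alone. The LAMA3 member began at 23872839, after the summit at 23872821, and covered both AP-1 elements. LOC124903779 held 2 SMAD boxes and no AP-1 element, and neither JUNB nor ATF3 was called on its members. Its summit, at base 219, and both boxes lay in the gap between 2 members. LOC124906209 held 5 SMAD boxes and no AP-1 element of these letters, and JUNB and ATF3 were called there in both treatments. Of all 27195 promoter windows, 7.73% held TGANTCA, 45% CAGAC, 0.195% GTCTAGAC, 7.45% CACGTG and 11.2% CATGTG. Of the 9 windows that overlap a member, 2 held TGANTCA, 8 CAGAC, 0 GTCTAGAC, 0 CACGTG and 1 CATGTG.

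As acetylated regions the members were of ordinary strength for the library. Fold enrichment, the authors' ratio of the pileup at the summit to the local background, had a median of 5.98 over members (range 2.14 to 32.5) and of 6.28 over all H3K27ac peaks with TGFB1. Their median width was 428 bp, against 484 bp in the whole list. Behind a member stood a median of 21 reads at the summit (range 7 to 105) over a local background of 2.80 reads, as recovered from the deposited values. They were stronger than the 17063 other TGFB1-only peaks, which had no SMAD2/3, a median fold enrichment of 4.18 and a median width of 244 bp. They were weaker than the 8187 peaks acetylated in both treatments that held SMAD2/3, whose medians were 17 and 1470 bp. On the SMAD2/3 side the order was different: the 520 SMAD2/3 peaks that lay on members had a median fold enrichment of 6.85, against 5.63 for the 8099 on acetylation of both treatments and 5.85 for the 2683 on no acetylation.

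The member of highest -log10 p (127) lay on chromosome 3 from 160129800 to 160131209 (GRCh38, as all positions here), inside the long non-coding RNA gene IL12A-AS1 and 91.1 kb from LOC124906252, the nearest protein-coding gene. It had an acetylation fold enrichment of 32.5, the highest of all members, and a SMAD2/3 fold enrichment of 21.8. The next was 27.7 kb from TNFRSF13B, a receptor of the TNF family known from B cells, with 18.7 for acetylation and 7.24 for SMAD2/3. YEATS4, a reader of acetylated histones, held one inside the gene with 28.2 and 20.7. A member 34.1 kb from TGFBI, a secreted matrix protein named for its induction by TGF-beta, had 22.9 and 27.7. FZD2, a Wnt receptor, had one 26.5 kb away with 22.6 and 8.53. The others among the 12 of highest -log10 p were inside DHRS3 (a retinal reductase), SLC2A12 (a glucose transporter), TGFB2 (a TGF-beta ligand), PARN (a poly(A) ribonuclease) and ITPR3 (a calcium channel of the endoplasmic reticulum), 61.6 kb from PMEPA1 (a feedback inhibitor of the pathway) and 22.1 kb from USP22 (a histone deubiquitinase). Their acetylation fold enrichments ran from 14.4 to 32.5. JUNB overlapped 11 of these 12 with TGFB1 and 6 in vehicle, where all H3K27ac peaks with TGFB1 had it on 27.7% and 16.9%. TNFRSF13B was without it.

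The strongest SMAD2/3 peak on a member, with a fold enrichment of 41.1, was inside LOC124908047 on chromosome 2 (member 127407214 to 127407977). By SMAD2/3 -log10 p, next came AOPEP, an aminopeptidase gene, where 1 SMAD2/3 peak of 33.4 touched 2 members of 10.8 and 11.6. A peak of 30.5 on chromosome 12, nearest to HMGA2 (a chromatin architectural protein) at over 100 kb, also touched 2 members. PMEPA1 followed with 26.5, then a site on chromosome 16 (80026330 to 80027103) with 28.9 and no gene within 100 kb, and TK2, the mitochondrial thymidine kinase, with 26.0. High SMAD2/3 and high acetylation coincided at IL12A-AS1, YEATS4 and TGFBI, while LOC124908047 and AOPEP paired the strongest SMAD2/3 with acetylation of 10.8 to 13.3. Widest were the members in ALOX5AP (leukotriene synthesis, 2531 bp), TLN2 (talin 2, 2179 bp), beside PMEPA1 (1941 bp) and in ABLIM3 (an actin-binding protein, 1854 bp).

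**Figure D1:**
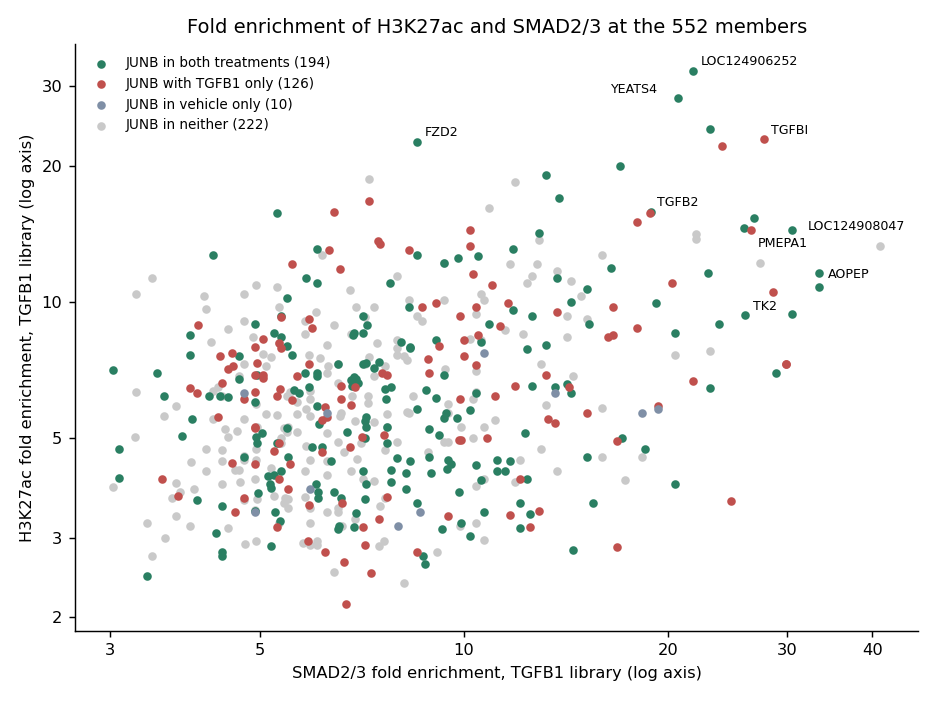
Each point is 1 of the 552 members, placed by the fold enrichment of SMAD2/3 (x axis, log scale) and of H3K27ac (y axis, log scale) in the TGFB1 libraries and coloured by the treatments in which JUNB overlapped it. H3K27ac runs from 2.14 to 32.5 and SMAD2/3 from 3.04 to 41.1, and members with and without JUNB are mixed over most of the range.

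Acetylation lay beside the SMAD2/3 summit more often than on it. The SMAD2/3 summit fell inside the member in 137 of 552 (24.8%, 21.4 to 28.6%). The acetylation summit was a median of 249 bp from the SMAD2/3 summit (quartiles 171 and 358 bp), and 449 members (81.3%) had the summits more than 150 bp apart. Counted by SMAD2/3 peak, the summit lay inside any H3K27ac peak of the TGFB1 library for 143 of the 520 on members (27.5%, 23.8 to 31.5%), against 5990 of the 8099 on acetylation of both treatments (74.0%, 73.0 to 74.9%). Peak width also differs between these groups, and its part in this difference was not tested. Within members the summit was inside for 18 of the 60 wider than 1000 bp (30%, 19.9 to 42.5%) and for 45 of the 170 of 300 bp or less (26.5%, 20.4 to 33.6%).

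In 33 cases 1 SMAD2/3 peak touched 2 or more members, and in 31 of these the SMAD2/3 summit fell in the stretch between them. A SMAD2/3 peak that touches 2 members must span the stretch between them, so choosing such cases favours a summit there. How much of the 31 this accounts for was not tested. Over the 33 the stretch between members had a median length of 222 bp (152 to 546 bp). At IL12A-AS1 it spanned 169 bp, between a member of fold enrichment 6.67 and the one of 32.5. At FZD2 it was 152 bp between members of 12.7 and 22.6, and at DHRS3 221 bp between 8.73 and 15.0. The same layout was found nearest to CDH11 (a cadherin, where the gap lies in the LOC124903779 promoter printed above), to JUN (an AP-1 subunit, 146 kb away) and to HMGA2, the last 2 far outside the genes. The exceptions were NCK2 (an adaptor protein) and ITPRID1, where the summit fell inside a member.

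**Figure D2:**
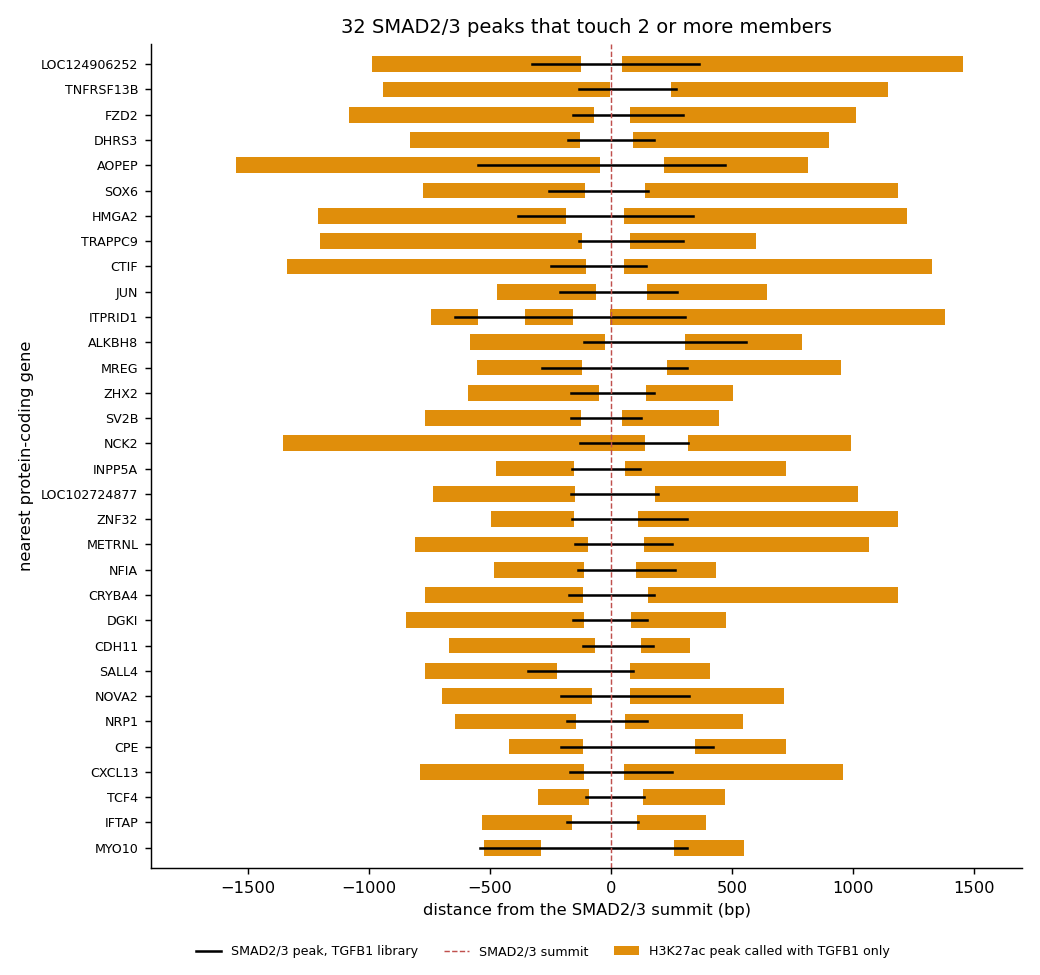
Each row is 1 of 32 SMAD2/3 peaks that touch 2 or more members, with the nearest protein-coding gene named; the x axis is the distance from the SMAD2/3 summit in bp. Orange bars are H3K27ac peaks called with TGFB1 only, black lines the SMAD2/3 peaks; in 30 of these rows the dashed line of the summit runs between bars.

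JUNB and ATF3 summits lay close to those of SMAD2/3. Of the 520 SMAD2/3 summits on members, 355 (68.3%) had a JUNB summit of the TGFB1 library within 250 bp, at a median of 30 bp. For ATF3 it was 248 (47.7%) at a median of 47 bp, and for MITF 29 (5.58%) at 47 bp. For H3K27ac, 301 had a summit within 250 bp, and among these the median was 177 bp. On acetylation of both treatments the medians were 44 bp for JUNB, 53 bp for ATF3 and 138 bp for H3K27ac, among 8099 SMAD2/3 summits.

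**Figure D3:**
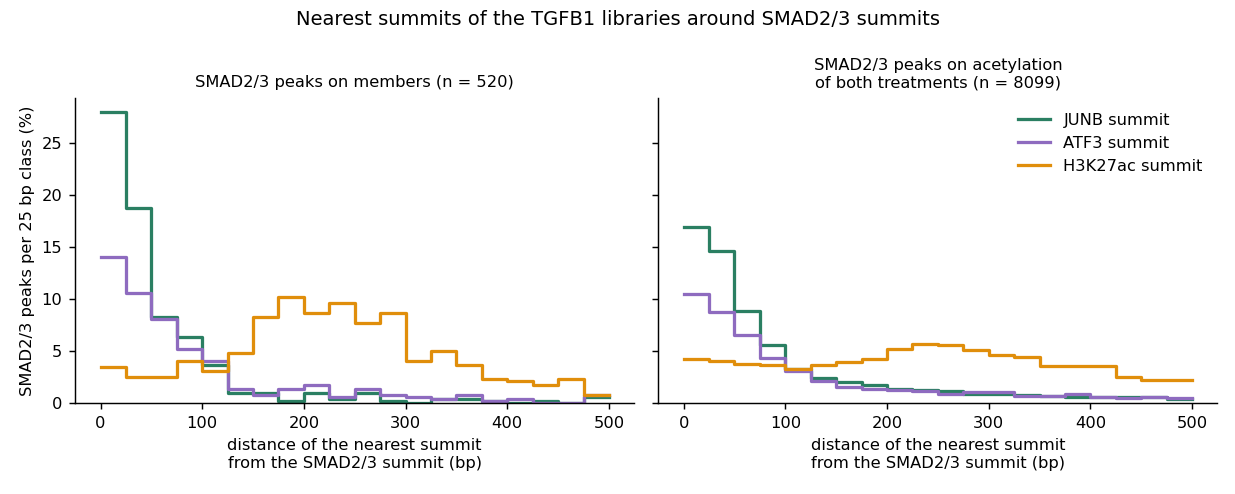
Share of SMAD2/3 peaks (y axis, % per class of 25 bp) by the distance of the nearest JUNB, ATF3 or H3K27ac summit of the TGFB1 libraries (x axis, bp), for 520 peaks on members (left) and 8099 on acetylation of both treatments (right). JUNB and ATF3 summits gather near 0 in both panels, and on members H3K27ac summits are most frequent in the classes between 150 and 300 bp.

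Because most factor summits lie beside the acetylated interval, the factors were counted by overlap with the member and again around the SMAD2/3 summit. By overlap, JUNB lay on 320 members with TGFB1 (58.0%, 53.8 to 62%) and on 204 in vehicle (37.0%, 33.0 to 41.1%). Over all H3K27ac peaks the shares were 27.7% and 16.9%, as above. ATF3 lay on 213 with TGFB1 (38.6%, 34.6 to 42.7%) and on 56 in vehicle (10.1%, 7.90 to 12.9%), where all H3K27ac peaks gave 20.2% and 6.89%. MITF lay on 16 with TGFB1 (2.90%, 1.79 to 4.66%) and on 11 in vehicle (1.99%, 1.12 to 3.53%), where all gave 4.33% and 4.40%. The ATF3 libraries differ 28.1 to 6.37 M reads in implied depth and the JUNB libraries 47.7 to 34.1, and the part of depth in the treatment differences was not tested. The implied depths for MITF were 7.40 and 7.39 M, from lists of 4968 and 5610 peaks.

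TGFB1-only acetylation without SMAD2/3 had far fewer of these factors by overlap. Its peaks were also narrower, with a median of 244 bp against 428 bp for members, and the part of width was not tested. JUNB lay on 11.4% of it with TGFB1 and 5.88% in vehicle, ATF3 on 7.96% and 2.03%, and MITF on 0.399% and 0.293%. Peaks of strong acetylation alone were also compared, without matching for width. Of peaks with an H3K27ac -log10 p of 20 or more, JUNB with TGFB1 overlapped 98 of 147 members (66.7%, 58.7 to 73.8%) and 90 of 291 peaks without SMAD2/3 (30.9%, 25.9 to 36.5%). ATF3 with TGFB1 overlapped 45.6% (37.7 to 53.6%) and 15.1% of these. MITF with TGFB1 was on 4 of the 147 (2.72%, 1.06 to 6.79%) and 4 of the 291 (1.37%, 0.536 to 3.48%), a difference within counting error, and in vehicle it was on 0 of both. Acetylation of both treatments with SMAD2/3 had JUNB on 69.7% with TGFB1 and 51.5% in vehicle, ATF3 on 52.5% and 20.7%, and MITF on 14.4% and 14.5%, but those peaks were wider.

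**Figure D4:**
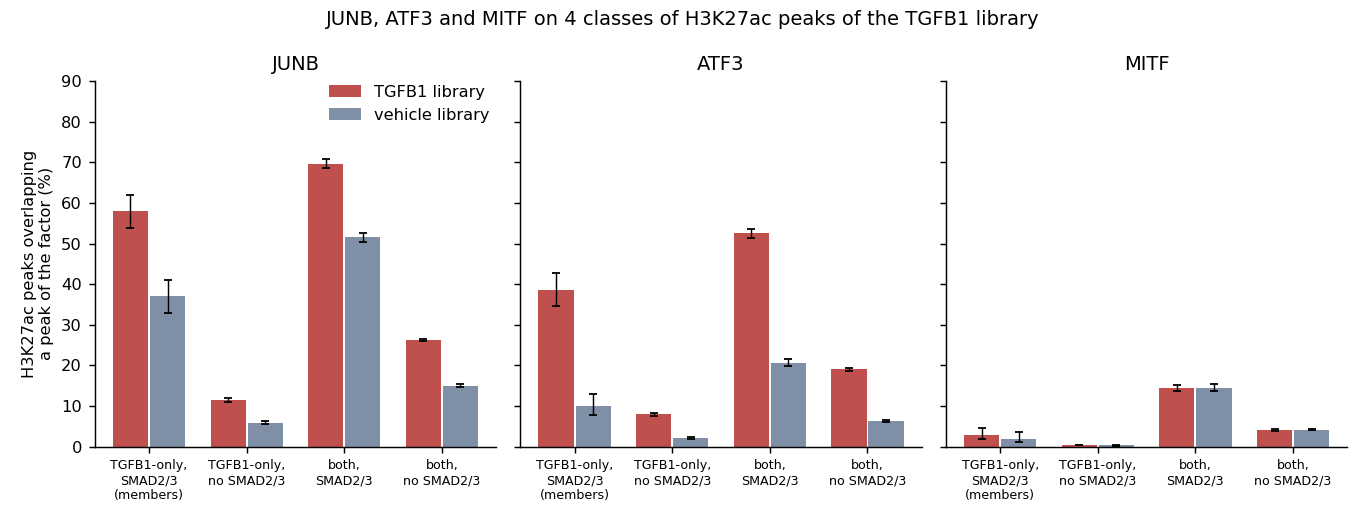
Percent of H3K27ac peaks of the TGFB1 library (y axis) that overlap a JUNB, ATF3 or MITF peak of the TGFB1 library (red) or the vehicle library (grey-blue), in 4 classes of H3K27ac peaks (x axis); bars start at 0 and error lines are 95% Wilson intervals. JUNB reaches 58.0% of members with TGFB1 and 37.0% in vehicle, while MITF stays at 2.90% and 1.99%.

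In a window of 250 bp either side of the SMAD2/3 summit, which does not depend on the width of the acetylated peak, the order of the groups depended on the factor and the treatment. JUNB lay in 71.0% of windows on members with TGFB1 (66.9 to 74.7%) and 52.5% in vehicle (48.2 to 56.8%), against 64.9% and 48.8% of windows on acetylation of both treatments and 55.2% and 46.2% of those on SMAD2/3 sites without acetylation. ATF3 with TGFB1 lay in 51.9% on members (47.6 to 56.2%), against 47.4% on acetylation of both treatments and 43.3% without acetylation. In vehicle the sites without acetylation had the highest ATF3 share, 24.1%, against 15.4% on members (12.5 to 18.7%). Acetylation of both treatments had 17.2%, a value inside the interval of the members. SMAD2/3 peaks on members were the stronger ones, with a median fold enrichment of 6.85 against 5.63. In the quartile of highest SMAD2/3 -log10 p, JUNB with TGFB1 stood at 81.0% on members (74.8 to 85.9%) and 80.0% on acetylation of both treatments. In vehicle that quartile gave JUNB at 64.6% on members (57.5 to 71.0%). Acetylation of both treatments had 69.4% and sites without acetylation 68.9%, both inside that interval. ATF3 with TGFB1 in that quartile stood at 64.0% on members (57.0 to 70.5%). Acetylation of both treatments had 65.8% and sites without acetylation 66.0%, both inside that interval. ATF3 in vehicle stood at 15.9% (11.4 to 21.8%), 25.9% and 41.8% in the same order of groups. In the lowest quartile JUNB with TGFB1 stood at 57.0% on members (47.2 to 66.3%). Acetylation of both treatments had 51.8%, a value inside that interval, and sites without acetylation 36.5%, a value below it.

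MITF was rarer on members around the summit too. It lay in 5.77% of windows on members with TGFB1 (4.07 to 8.12%) and 3.65% in vehicle (2.35 to 5.64%), against 12.9% and 12.8% on acetylation of both treatments and 8.68% and 13.9% on SMAD2/3 sites without acetylation. In the highest quartile of SMAD2/3 strength it was 10.6% with TGFB1 on members (6.96 to 15.8%) and 18.5% on acetylation of both treatments. The vehicle library gave 3.17% and 14.7% there. These 2 groups also differed in place, with 2.36% and 25% of acetylation summits within 1 kb of a gene end, and the part of place in the MITF shares was not tested.

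Most JUNB on members with TGFB1 had been called in vehicle too. Of the 552 members, 194 overlapped JUNB in both treatments (35.1%), 126 with TGFB1 alone (22.8%), 10 in vehicle alone and 222 in neither. JUNB in both treatments was found on 49.1% of acetylation of both treatments with SMAD2/3 and on 4.69% of TGFB1-only acetylation without it, and JUNB with TGFB1 alone on 20.6% and 6.75%. ATF3 was in both on 45, with TGFB1 alone on 168 and in vehicle alone on 11, that is 8.15%, 30.4% and 1.99%. On acetylation of both treatments with SMAD2/3 these shares were 17.9%, 34.5% and 2.77%. The JUNB peaks were strong ones: 316 on members had a median fold enrichment of 12.6 with TGFB1, where the whole list had 5.36, and 200 had 8.57 in vehicle, where the list had 5.41. ATF3 peaks on members had 6.99 with TGFB1, against 5.78 in the list. With TGFB1, 189 members held JUNB and ATF3 together (34.2%), 131 JUNB alone of that pair, 24 ATF3 alone, and 207 (37.5%) none of JUNB, ATF3 and MITF. None of the 3 was found with TGFB1 on 24.0% of acetylation of both treatments with SMAD2/3 and on 85.0% of TGFB1-only acetylation without it, and JUNB with ATF3 on 47.9% and 4.51%. In neither treatment did 193 members (35.0%, 31.1 to 39.0%) overlap any of the 3 factors, against 20.2% of acetylation of both treatments with SMAD2/3. Those include both members near TNFRSF13B and all 3 near ITPRID1.

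Of the 16 members with MITF after TGFB1, 15 also overlapped JUNB and 10 also ATF3, and 10 held all 3. Over all members JUNB with TGFB1 lay on 58.0% and ATF3 on 38.6%. Acetylation of both treatments with SMAD2/3 had them on 69.7% and 52.5%. On acetylation of both treatments with SMAD2/3, 747 of 1183 peaks with MITF held all 3, a like proportion. KRT23, a keratin gene, had MITF with neither. The strongest by SMAD2/3 of those with all 3 was in TK2, followed by SUGCT, ARID5A (4.74 kb away), CCDC200 (58.3 kb), NAV3 and a site on chromosome 8 without a gene within 100 kb. SPOCK1, a matrix proteoglycan gene, held the MITF member of highest acetylation, with a fold enrichment of 15.3 and a SMAD2/3 value of 26.8. MITF overlapped 4 members in both treatments, 12 with TGFB1 alone and 7 in vehicle alone, so most of these few sites were called in only 1 library.

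Members stood away from promoters. At most 1 kb from either end of any protein-coding gene lay 13 acetylation summits (2.36%, 1.38 to 3.99%), where all H3K27ac peaks with TGFB1 gave 18.6% and the other TGFB1-only peaks 4.85%. Elsewhere in gene bodies lay 231 (41.8%) and outside genes 308 (55.8%, 51.6 to 59.9%), against 46.8% outside genes for TGFB1-only acetylation without SMAD2/3. Of the 524 members on chromosomes with starts in the table used, 474 (90.5%, 87.6 to 92.7%) lay over 10 kb from every protein-coding gene start, against 83.6% without SMAD2/3 and 68.4% on acetylation of both treatments with it. The 13 near gene ends included those at NDST1, CLN8, KLK6, KRT23, USHBP1, DAPK3, RAPGEF1, RAB11FIP1, KRTAP2-1, PTPRN, LRATD2 and ATP5F1D, and the 13 had a median fold enrichment of 5.93. JUNB lay on 5 of them with TGFB1 and 3 in vehicle, and ATF3 on 5 and 2. No protein-coding gene lay within 100 kb of 116 members (21.0%). Outside protein-coding genes, 86 members (15.6%) lay in a long non-coding RNA gene, 3 of them in LINC02751 on chromosome 11, with fold enrichments of 14.1, 13.8 and 10.8 and no JUNB, ATF3 or MITF. Enhancer here means acetylation away from gene starts, and enhancer activity itself was not measured.

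Many members lay near acetylation of the vehicle library. The gap to the nearest vehicle acetylation had a median of 3540 bp and ran from 31 bp to 451 kb. It was under 500 bp for 201 members (36.4%, 32.5 to 40.5%), and 36.1% of TGFB1-only peaks without SMAD2/3 lay as near. At intermediate distances the 2 groups differed: 18.7% of members (15.6 to 22.1%) and 32.2% of the others lay 500 bp to 5 kb away, while 35.1% of members (31.3 to 39.2%) and 24.5% of the others lay 5 to 50 kb away. ATF3 lay on 47.8% of the members under 500 bp away with TGFB1 (41.0 to 54.6%) and 12.4% in vehicle, and on 33.3% (28.6 to 38.4%) and 8.83% of the 351 farther away. JUNB lay on 61.7% of the near members with TGFB1 (54.8 to 68.1%) and 43.3% in vehicle, and on 55.8% (50.6 to 60.9%) and 33.3% of the far ones. At 50 kb or more were 54 members (9.78%) and 7.19% of the others. The most isolated were near ARHGEF5 (a guanine nucleotide exchange factor, 451 kb from vehicle acetylation), on chromosome 17 (14738209 to 14738497, 429 kb), near CXCL12 (a chemokine, 424 kb) and near OR5AK2 (an olfactory receptor, 377 kb). The ARHGEF5, chromosome 17 and OR5AK2 members were weak, with fold enrichments of 2.89 to 3.84, whereas CXCL12 had 8.47. Stronger and still isolated was the ITPRID1 member of 12.7, at 298 kb, and CACHD1 with 15.8 at 59.9 kb.

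**Figure D5:**
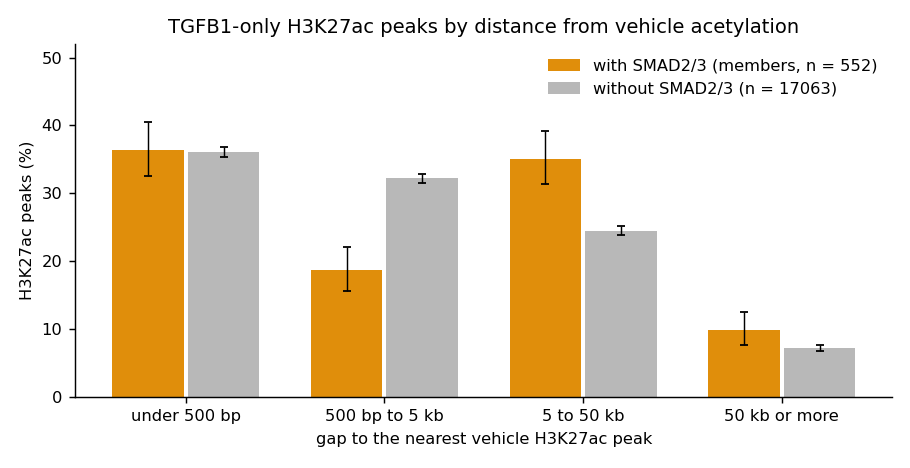
Percent of TGFB1-only H3K27ac peaks (y axis, error lines 95% Wilson intervals) by the gap to the nearest vehicle H3K27ac peak (x axis), for 552 members (orange) and 17063 peaks without SMAD2/3 (grey). The groups are alike under 500 bp (36.4% and 36.1%) and part between 500 bp and 50 kb.

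The SMAD2/3 peak of a member could itself reach vehicle acetylation. That was so for 79 of the 520 SMAD2/3 peaks (15.2%), and 441 touched none. JUNB lay around the summit of 81.0% of the 79 with TGFB1 (71.0 to 88.1%) and 70.9% in vehicle, and around 69.2% (64.7 to 73.3%) and 49.2% of the 441. ATF3 lay around 72.2% with TGFB1 (61.4 to 80.8%) and 26.6% in vehicle of the 79, and around 48.3% and 13.4% of the 441. SMAD2/3 was called in vehicle on 7 members (1.27%, 0.616 to 2.59%), where all H3K27ac peaks with TGFB1 gave 0.320%. Since the rule requires SMAD2/3 with TGFB1, the nearer comparison is acetylation of both treatments that holds it, which had SMAD2/3 in vehicle on 212 of 8187 (2.59%, 2.27 to 2.96%). The 7 members were in LOC124908047, RARA (a retinoic acid receptor), CCDC63, CORO2B (a coronin) and FTO (an RNA demethylase), and outside NBPF20 and LOC124905938.

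Each member was given the protein-coding gene that holds its summit, or the nearest within 100 kb. That named 392 of 19970 genes (1.96%), of which 352 had 1 member, 36 had 2 and 4 had 3. The 4 were CTIF (a cap-binding translation factor), ITPRID1, METRNL (a secreted protein) and MREG (melanoregulin, an organelle trafficking protein of pigment cells). The members of ITPRID1 span 2.12 kb and those of MREG 4.30 kb, whereas those of CTIF span 134 kb. At CTIF, 2 of 3 members overlapped JUNB in both treatments, and no member of ITPRID1 or MREG overlapped JUNB.

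Among ligands and receptors of the pathway, TGFB2 held 2 members inside the gene, with acetylation fold enrichments of 15.7 and 11.6 and SMAD2/3 of 18.8 and 22.9. JUNB lay on both of them with TGFB1 and on 1 in vehicle. TGFBR2, the type II receptor, held one inside the gene with 8.02 and 13.2, and JUNB there was called in both treatments. With PMEPA1 they make 3 of 41 pathway components given a member (7.32%), against 1.96% of all protein-coding genes. TGFB1-only acetylation without SMAD2/3 was also frequent at the pathway components, given to 61% of them against 31.9% of all genes. Acetylation of both treatments with SMAD2/3 was given to 53.7% of them, against 22% of all genes. The acetylation of the members at TGFB2, TGFBR2 and PMEPA1 is a mark near the gene, and no RNA was measured here.

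Of 50 TGF-beta target genes 9 were given a member (18%), and 14 had one within 100 kb (28.0%, where all protein-coding genes gave 5.18%). Over all 552 members, JUNB lay on 58.0% with TGFB1 and 37.0% in vehicle, ATF3 on 38.6% and 10.1%, and MITF on 2.90% and 1.99%. The 9 had 11 members, of which 10 overlapped JUNB with TGFB1 and 5 in vehicle, 9 overlapped ATF3 with TGFB1 and 2 in vehicle, and none overlapped MITF. Beside TGFBI, PMEPA1 and TGFBR2 they included NEDD9 (an adhesion scaffold, 14.2 and 11.0 inside the gene), ID3 (an inhibitor of helix-loop-helix factors, 13.4 at 26.0 kb), BHLHE40 (a repressor, 8.14 at 37.6 kb), ZEB1 (a repressor of epithelial genes, 7.32 at 75 kb) and NOX4 (an NADPH oxidase, 5.67 inside the gene). The target list was also often given TGFB1-only acetylation without SMAD2/3, 78.0% of it against 31.9% of all genes. Acetylation of both treatments with SMAD2/3 was given to 84.0% of the list, against 22% of all genes.

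The other lists were small, and their shares are to be read against 1.96% of all genes given a member. TGFB1-only peaks without SMAD2/3 were also frequent at them, given to 77.8% of the integrin, adhesion and actin list, 63.2% of the matrix list and 75% of the WNT list, against 31.9% of all genes. Acetylation of both treatments with SMAD2/3 was given to 63.9%, 60.5% and 60.7% of these lists in the same order, against 22% of all genes. Of 36 integrin, adhesion and actin genes 5 were given a member (13.9%): NEDD9, the integrin chains ITGA1 (9.72, inside the gene), ITGA5 (6.97, 3.71 kb away) and ITGB1 (4.88, 51.8 kb away), and TNS3 (a tensin, 6.12). Of 38 extracellular matrix genes 3 were (7.89%), all collagens: COL5A1 with members of 14.4 and 6.38, COL6A2 with 11.5 and COL6A3 with 7.89. JUNB lay on all 4 of these members with TGFB1 and on 2 in vehicle, where all members gave 58.0% and 37.0%. Of 21 genes of dedifferentiated melanoma 2 were given a member, among them PLAU, the urokinase-type protease. TGFB1-only acetylation without SMAD2/3 was given to 85.7% of that list, and acetylation of both treatments with SMAD2/3 to 76.2%. PLAU had members of 6.58 and 5.87, and both overlapped JUNB and ATF3 in both treatments. Of 28 WNT genes 3 were (10.7%), the receptors FZD2 and FZD6 and the antagonist SFRP1.

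Among transcription factors, ZEB1, TFAP2A (6.62) and NR2F2 (3.36) were the 3 of 27 EMT and neural crest factors (11.1%), and MAF (8.91) and ATF3 itself (3.35) the 2 of 17 AP-1 family genes. TGFB1-only acetylation without SMAD2/3 was given to 63.0% and 47.1% of these lists, against 31.9% of all genes. Acetylation of both treatments with SMAD2/3 was given to 77.8% and 64.7% of them, against 22% of all genes. The ATF3 member lay inside the gene and overlapped JUNB with TGFB1 alone. Of 23 pigment cell genes 2 were given one (8.70%), GPR143, a receptor of the melanosome, with 6.31, and TFAP2A. No Notch, lysosome, interferon and antigen presentation, cytokine or housekeeping gene of the lists was given a member, and none of 18 markers of other cell types was. Acetylation of both treatments with SMAD2/3 was given to 10 of the 23 pigment cell genes (43.5%) and to 2 of the 18 markers of other cell types (11.1%). The interferon list had 0 of 26, the lysosome and cytokine lists 0 of 20 each, and the Notch list 0 of 16. The housekeeping list and the markers of other cell types had 0 of 18 each. A count of 0 in lists this small does not set them apart from a share of 1.96% over all genes. The counts of the lists with members were not tested against that share either.

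At the edges of the rule, the members nearest to vehicle acetylation had gaps of 31, 79 and 96 bp and -log10 p of 7.03, 8.29 and 13.4. The 3 acetylated peaks with SMAD2/3 that missed the rule by the smallest overlap with vehicle acetylation shared 9, 19 and 31 bp and had 5.04, 6.57 and 4.43. On the other side, 187 members shared under 50 bp with their SMAD2/3 peak, with a median fold enrichment of 5.58. Another 665 TGFB1-only peaks came within 200 bp of SMAD2/3 without touching it (a gap of up to 200 bp), with a median of 5.10.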

How the data were processed

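Per the submitters' processing notes, reads were processed with Bowtie and MACS2 (version 2.0 given) on GRCh38, and the authors deposited 1 peak list for each library. The control used for each list and the handling of duplicates are not given in the sources used here. Of each peak the deposited values used were the fold enrichment ratio and the -log10 p and -log10 q at the summit, and the deposited score was not used. The design text speaks of a technical triplicate, whereas the labels list 1 library per antibody and treatment.

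Identical intervals were counted once, and overlap meant at least 1 bp. Python 3.11.15, pandas 2.3.3, numpy 2.4.6, scipy 1.17.1 and matplotlib 3.10.9 were used. Pileup and background were solved from fold enrichment and -log10 p assuming 1 pseudocount in each, and were whole within 0.05 reads for 100.0% of solved peaks in each list; 90.18% of the ATF3 vehicle peaks and at least 97.56% of the peaks in each other list could be solved. Depths are therefore estimates, not read totals. Implied depth is the lowest background divided by the shortest peak, over an assumed genome of 2.7 Gb. That shortest peak was 183 bp for SMAD2/3 with TGFB1 and 311 bp in vehicle. Overlaps, gaps and pileups were tested on simulated data.

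Genes and promoter sequences come from RefSeq tables (GRCh38.p14), whose promoters cover 15812 of the 19970 genes and none on chromosome 8. The planned motif search at SMAD2/3 summits was replaced by one in these promoters, since no genome was used here. Members, gene lists and tests were chosen with earlier results of these data known. Named are the 12 members of highest H3K27ac and the 8 of highest SMAD2/3 -log10 p, genes with 3 or more members, the 6 members with all 3 factors of highest SMAD2/3 -log10 p, the 4 widest, the 4 farthest from vehicle acetylation, and up to 6 genes of each list. The printed promoters, the flanking pairs, the 7 members with SMAD2/3 in vehicle, the 13 near gene ends, LINC02751, NOX4, SPOCK1, KRT23 and CACHD1 were singled out after their values were seen. One gene beside members counts in the totals and is not reported here by name.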

Additional observations from a re-analysis of the deposited data

How the results depend on the processing

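Of 80 values under other settings, 44 moved by less than the counting error, or by less than 1.5 times for counts, and 36 moved further. The cause was not tested for any of them. Requiring a -log10 q of at least 5 for H3K27ac left 446 members, and for SMAD2/3 425. Without any vehicle acetylation within 500 bp there were 351 members, given to 244 genes and 4 TGF-beta targets. Their share with ATF3 was 33.3% with TGFB1, their share with MITF was 0.855% in vehicle, and 0.855% lay within 1 kb of a gene end. With the SMAD2/3 summit inside the acetylated peak there were 137 members, 101 genes and 3 TGF-beta targets. Those had JUNB on 49.6% with TGFB1, ATF3 on 19.7% in vehicle and MITF on 3.65% in vehicle. A setting chosen after seeing the data, SMAD2/3 at a gap of under 200 bp, gave 1214 members and 710 genes. There JUNB lay on 40.9% with TGFB1 and 22.8% in vehicle, and ATF3 on 28.8% and 6.67%. Factor peaks of -log10 q of at least 5 gave ATF3 on 34.6% with TGFB1 and 6.52% in vehicle. The 5000 strongest peaks of each factor list gave JUNB on 27.2% with TGFB1 and 14.3% in vehicle, and ATF3 on 7.25% and 2.72%. Requiring the factor summit inside the member gave JUNB on 10.9% with TGFB1 and 7.43% in vehicle, ATF3 on 11.4% and 5.07%, and MITF on 1.45% with TGFB1. Around the strongest SMAD2/3 summit of each member, JUNB lay on 71.0% with TGFB1 and 52.4% in vehicle, ATF3 on 51.8% and 14.7%, and MITF on 5.80% with TGFB1. A gene end within 5 kb took in 10.9% of members, and 4 TGF-beta targets had a member within 10 kb.

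Without replicates, all shares describe single libraries. An interval called with TGFB1 and not in vehicle can differ by few reads, since the median member had 21 reads at its summit. The vehicle ATF3 list comes from the shallowest library by implied depth, so a member without an ATF3 call there is not shown to be unbound. No paired analysis was possible because each antibody and treatment had 1 library and no result comes from a test.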
